A study of Mus musculus with 6 samples.

Results

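Keratin-associated proteins form the matrix in which keratin filaments of the hair shaft are embedded. The genes analysed here were all rows of the deposited count table whose mouse symbol starts with Krtap followed by a digit. There were 55 of them among 27179 genes. They were divided by the family number in the symbol, except that Krtap16-3 was placed by its codons. This gave 16 high sulfur, 20 ultrahigh sulfur and 16 high glycine-tyrosine genes, and 3 genes (Krtap28-13, Krtap31-1 and Krtap31-2) were placed in no subfamily. Of the 55, 53 passed the filter on low counts, and Krtap13 and Krtap6-3 did not.

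The counts came from RNA sequencing of skin of female BALB/c mice aged 6 to 8 weeks, in a bleomycin model of scleroderma. In the series used here, the control group had 1 library. The bleomycin group, given an agent that breaks DNA and produces dermal fibrosis in mice, also had 1 library. Bleomycin with EHP-101, a cannabidiol derivative formulated for oral use, had 1 library as well. Bleomycin with the synthetic cannabinoid ajulemic acid had 3 libraries, named replicates 1, 2 and 3. All 4 groups shared strain, sex and age range, and no drug was given to mice without bleomycin. The labels used here give no dose, time, body site, shaving or stage of the hair cycle, and do not say whether the ajulemic acid libraries came from separate mice, so the p-values reflect the spread among these libraries alone, which may be technical. The total per library lay between 14291592 and 19837682 counts.

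Hair follicles cycle between growth (anagen), regression (catagen) and rest (telogen), and the shaft is made only during growth. In a growing follicle, cells leaving the matrix of the bulb first make hair keratins and then the keratin-associated proteins, whose cysteines cross-link the keratin filaments through disulfide bonds. High sulfur and ultrahigh sulfur proteins are named for their cysteine content, and high glycine-tyrosine proteins for the residues that make up most of their chain. In mice the follicles of a skin region cycle together in the first weeks of life, so bulk skin RNA carries much shaft RNA at one time and little at another. In bulk samples, fewer shaft-forming cells and less of these RNAs per cell cannot be told apart.

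The 55 genes lay in 4 clusters and 1 single position (mm10). On chromosome 16, 24 genes lay between 88610709 and 89571183, a span of 960 kb that held all 16 high glycine-tyrosine genes and 8 of the high sulfur genes. On chromosome 11, 22 genes lay between 99550132 and 99993994, a span of 444 kb with 8 high sulfur, 12 ultrahigh sulfur and 2 unassigned genes. The other ultrahigh sulfur genes lay on chromosome 7 (5 genes) and chromosome 10 (3 genes), and Krtap28-13 lay alone on chromosome 1. All 55 had a single exon.

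Their coding sequences were in keeping with most of the names. Cysteine took a median of 37.3% of the codons in the ultrahigh sulfur genes (range 25.4 to 41.5%), 16.4% in the high sulfur genes (4.0 to 30.6%) and 8.05% in the high glycine-tyrosine genes (0.0 to 16.7%). Glycine and tyrosine together took a median of 63.1% of the codons in the high glycine-tyrosine genes, against 9.80% in the high sulfur and 4.45% in the ultrahigh sulfur genes. Krtap16-3 was counted with the high glycine-tyrosine genes although family number 16 belongs to the high sulfur group, because 59.3% of its codons were glycine or tyrosine. Krtap7-1 had the lowest such share of its subfamily, 29.9%. Krtap5-2 and Krtap5-3, at 36.0% and 39.3%, were left with the ultrahigh sulfur genes.

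Many members resemble each other, which limits how well a read of 50 bp can be placed. No stretch of 50 bases of the transcript occurred in another gene for 15 of the 55 members, more than 20% of such stretches did for 15, and the median was 8.10%. The highest share was 81.3%, in Krtap4-13. How the counting treated reads with several matches is not stated in the sources at hand. The values of those 15 (Krtap2-4, Krtap3-2, Krtap3-3, Krtap4-8, Krtap4-13, Krtap5-1, Krtap5-2, Krtap5-5, Krtap6-1, Krtap9-1, Krtap10-4, Krtap10-10, Krtap13, Krtap31-1 and Krtap31-2) are therefore less certain than those of single-copy members such as Krtap8-1, Krtap7-1, Krtap15, Krtap14, Krtap11-1 and Krtap17-1, which shared none.

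The bases just upstream of the start are shown for 6 abundant members, since these genes were high and low in the same libraries and 5 of the 6 hold a motif that the rule did not use. The letters are the 80 bases before the annotated start from RefSeq (GRCm38.p6, the patch release of the mm10 assembly), on the gene's strand, and capitals mark TATAAA, the core of a TATA box.
Krtap15 (high sulfur, chr16:88828929-88829008, plus strand): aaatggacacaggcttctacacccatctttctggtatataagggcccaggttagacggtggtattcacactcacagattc
Krtap1-5 (high sulfur, chr11:99581017-99581096, minus strand): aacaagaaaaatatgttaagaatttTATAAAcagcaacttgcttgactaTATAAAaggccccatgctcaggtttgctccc
Krtap9-3 (ultrahigh sulfur, chr11:99598107-99598186, minus strand): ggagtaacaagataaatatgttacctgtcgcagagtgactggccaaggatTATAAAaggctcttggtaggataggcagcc
Krtap4-7 (ultrahigh sulfur, chr11:99644090-99644169, minus strand): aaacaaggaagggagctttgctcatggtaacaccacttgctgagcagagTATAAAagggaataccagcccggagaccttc
Krtap8-1 (high glycine-tyrosine, chr16:89487953-89488032, minus strand): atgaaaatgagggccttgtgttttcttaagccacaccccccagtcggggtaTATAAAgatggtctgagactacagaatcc
Krtap22-2 (high glycine-tyrosine, chr16:89010760-89010839, minus strand): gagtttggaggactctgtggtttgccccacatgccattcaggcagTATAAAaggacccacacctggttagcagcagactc
In 5 of these the motif nearest to the start began 29 to 35 bases before it, and the 80 bases of Krtap15 did not hold these 6 letters.

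Promoter windows of 300 bases (250 before and 50 after the start) were found for 50 of the 55 members. TATAAA occurred on either strand in 82.0% of the 50 windows and in 13.6% of 32851 windows of all genes. On the gene's own strand, 40 to 15 bases before the start, it occurred in 60% against 1.99%. CTTTGA, the core of a site bound by LEF1 and TCF factors of the Wnt pathway, occurred on either strand in 30.0% of the Krtap windows and 16% of all windows. By subfamily, CTTTGA was in 60% of the high sulfur, 33.3% of the high glycine-tyrosine and 5.88% of the ultrahigh sulfur windows. CCAATAAA, a form of the site bound by HOX factors including HOXC13, was in 0 of the 50 windows and in 1.12% of all windows. These are matches of letters in a window and say nothing about binding.

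Summed over the 55 genes, Krtap RNA was abundant in the control library and about 20 times lower in the bleomycin library. Levels are CPM, that is counts scaled to a common library size, with TMM-scaled library sizes. The sum was 4944 CPM in control, 227 CPM in bleomycin and 2295 CPM in EHP-101. The ajulemic acid replicates held 3969, 406 and 8018 CPM, a mean of 4131 ± 3809 (SD, n = 3). Control was thus 21.8-fold and EHP-101 10.1-fold above bleomycin, and within the ajulemic acid group replicate 3 was 19.8-fold above replicate 2. The difference between replicates of 1 treatment was about as large as the difference between the control and the bleomycin library.

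The order of the sums, from the highest, was ajulemic acid replicate 3, control, ajulemic acid replicate 1, EHP-101, ajulemic acid replicate 2 and bleomycin. The single libraries were compared with the ajulemic acid group by an exact two-sided permutation test, which with 3 libraries against 1 cannot go below p = 0.25. The exact p was 0.5 for bleomycin and 0.75 each for control and for EHP-101. The bleomycin sum was below all 3 ajulemic acid sums, replicate 2 being only 1.79-fold above it, while the control and EHP-101 sums lay within their range. Neighbours in this order could not be told apart from the spread between replicates.

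Single members followed the sums closely. In 52 of the 55, ajulemic acid replicate 3, control, ajulemic acid replicate 1 and EHP-101 were all above both ajulemic acid replicate 2 and bleomycin. The full order of the 6 libraries was the same as that of the sums in 23 members. Replicate 3 was the highest library for 50 members, and control for the other 5, all of them high glycine-tyrosine genes. The split and the order were taken from the sums of these same members, so some match was built in. None of these counts was made over all genes.

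**Figure D1:**
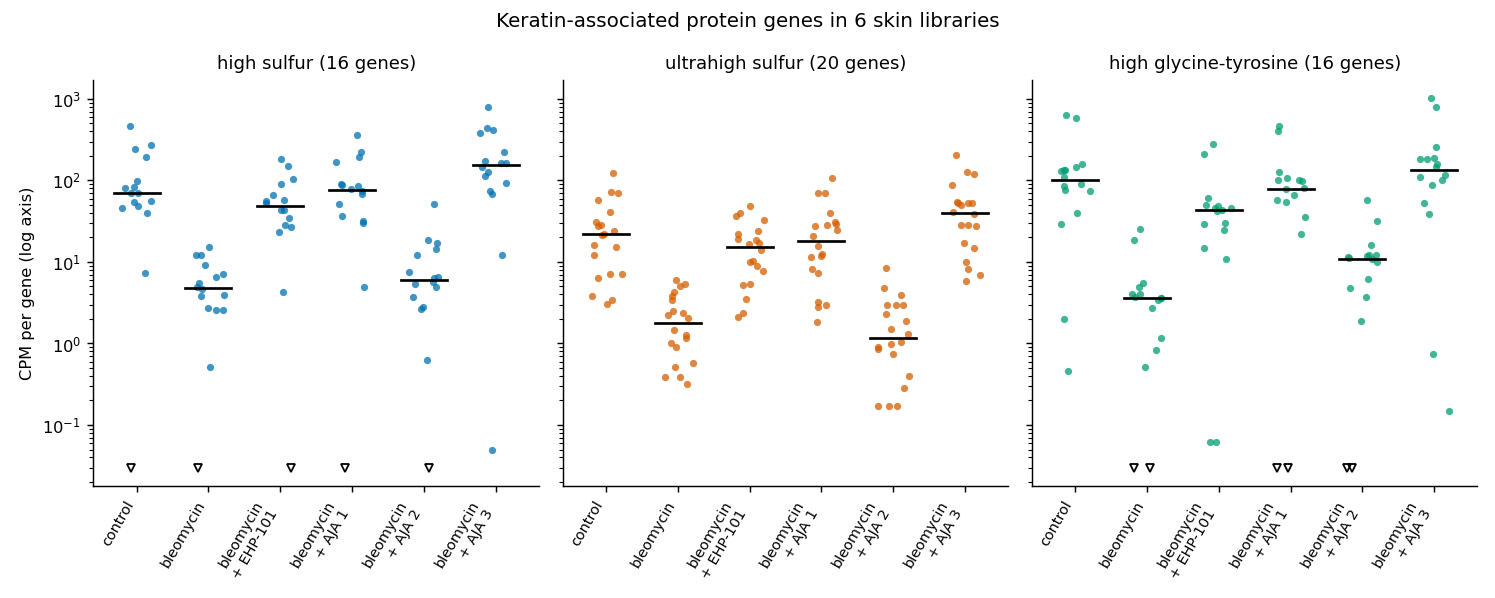
CPM of each keratin-associated protein gene (points, log axis) in the 6 skin libraries (AJA, ajulemic acid), in 1 panel per subfamily; the horizontal line is the median over the genes, and open triangles at the bottom are genes with 0 counts. In each panel the medians of the bleomycin library and ajulemic acid replicate 2 lie well below those of the other 4 libraries.

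High sulfur proteins are made in the cortex and cuticle of the shaft, and Krtap15, Krtap1-5, Krtap11-1 and Krtap14 were the most abundant of their genes per length. Krtap15 (gene 26560, chromosome 16) had 468 CPM in control, 15.1 in bleomycin, 183 with EHP-101 and 364, 51.4 and 798 across the ajulemic acid replicates. The bleomycin value was the lowest and lay below all 3 ajulemic acid values, and control lay inside their range. Krtap1-5 (gene 69664, chromosome 11) had 276 CPM in control, 12.1 in bleomycin, 105 with EHP-101 and 222, 18.4 and 444 across the ajulemic acid replicates. Krtap11-1, the gene at the far end of the chromosome 16 cluster, had 243, 12, 149, 196, 14.4 and 420 CPM in the same order of libraries. Krtap14 had 196, 7.12, 89.5, 167, 17.1 and 379 CPM. In all 4 genes bleomycin was the lowest library and replicate 2 the next. Krtap3-1, a small chromosome 11 gene, varied most of all members between the ajulemic acid replicates, with 86.6, 5.39 and 224 CPM, and there replicate 2 was just below the 5.52 CPM of the bleomycin library.

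The ultrahigh sulfur genes, expressed late in shaft keratinization and mostly in the cuticle or cortex, were the least abundant subfamily per length, with a median over members of 16.9 CPM per kilobase (mean of the 6 libraries) against 62.4 for the high sulfur and 106 for the high glycine-tyrosine genes. Krtap9-3 (gene 75586, chromosome 11) had 123 CPM in control, 5.97 in bleomycin, 48.1 with EHP-101 and 107, 8.43 and 206 across the ajulemic acid replicates. Krtap4-7 (gene 76444) had 70.5, 5.33, 39.8, 69.9, 4.82 and 118 CPM, and Krtap4-1 had 71.6, 5.01, 36.5, 69.9, 3.96 and 125 CPM. Krtap17-1, a gene without near copies, had 58.3, 3.79, 32.4, 39.8, 2.98 and 86.9 CPM. For Krtap4-7, Krtap4-1 and Krtap17-1 the lowest library was ajulemic acid replicate 2 and not bleomycin, so the bleomycin value fell inside the range of the ajulemic acid group. Of the ultrahigh sulfur genes with more than 3 counts in both of these low libraries, Krtap9-1 differed most between them. It had 1.03 CPM in bleomycin (16 counts) and 0.287 CPM in replicate 2 (only 5 counts).

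The high glycine-tyrosine genes, which are made mostly in the cortex, held the most abundant members. Krtap8-1 (gene 16703, chromosome 16) had 643 CPM in control (95% Poisson interval for counting error 631 to 656), 25 in bleomycin (22.6 to 27.6), 278 in EHP-101 (270 to 286) and 461, 57.0 and 1020 across the ajulemic acid replicates. Krtap7-1 (gene 71363) had 586, 18.8, 213, 404, 31.5 and 807 CPM in the same order of libraries. Krtap22-2 had 147, 4.04, 46.1, 106, 12.1 and 190 CPM. In all 3 genes the bleomycin library was the lowest, replicate 2 was 1.67-fold to 2.99-fold above it, and the other 4 libraries were far higher. Krtap16-3 had 134, 3.66, 61.0, 127, 15.9 and 254 CPM, with replicate 2 a further step above bleomycin.

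Krtap20-2 and its neighbour Krtap6-3 departed from the common pattern. Krtap20-2 had 30 counts in control, 0 in bleomycin, 1 with EHP-101 and 0, 0 and 15 across the ajulemic acid replicates, and Krtap6-3 had 7, 0, 1, 0, 0 and 3. Replicate 1 thus held none of either, although for the other members it was close to control. A count of 0 there allows a level of up to 0.205 CPM (3 counts), and against the same limit in bleomycin Krtap20-2 was at least 10.2-fold higher in control. Krtap13 had 1 count in all 6 libraries, in replicate 3.

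The first comparison asked how bleomycin skin differed from control skin. Of the 55 members, 54 were lower in the bleomycin library and Krtap13 was at 0 in both. Among the 52 tested members with a count in every group the fitted change was at least 4-fold lower in 52, where 2.53% of the 17377 genes tested were that much lower, and the median log2 fold change was -4.10, against -0.01 over all genes tested. The median was -5.00 in the high glycine-tyrosine, -4.14 in the high sulfur and -3.59 in the ultrahigh sulfur genes. Krtap19-2 had the lowest value, with 77.2 CPM in control and 1.16 CPM in bleomycin. Krtap3-2 was the least lowered high sulfur gene, with 55.5 CPM in control and 9.30 CPM in bleomycin.

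No member passed the edgeR quasi-likelihood test in this comparison at an adjusted p (Benjamini-Hochberg) of 0.05, and neither did any other gene (0% called). The smallest adjusted p was 0.748, and 0 of 53 members had an unadjusted p under 0.05, where 1182 of the 17377 genes tested did. DESeq2 also called 0 members, but of the 17377 genes tested it called 128 higher and 37 lower. By DESeq2, 19 of 53 members were lower at an unadjusted p under 0.05, and the share over all genes was not counted. The median standard error of the members' log2 fold changes was 2.32, against 0.35 over all genes tested, as the fit takes its spread from the ajulemic acid group alone, where these genes varied widely. Without ajulemic acid replicate 2, edgeR still called 0, but the smallest adjusted p was 0.0678 and 53 of 53 members had an unadjusted p under 0.05. The share over all genes was not counted for that fit. As the library left out was the low one of its group, no conclusion is drawn from these values. For Krtap8-1 the log2 fold change with all libraries was -4.68 (SE 2.18, adjusted p = 0.775).

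The second comparison set EHP-101 treated bleomycin skin against bleomycin skin. In the EHP-101 library 54 of the 55 members were higher and Krtap13 was at 0 in both. The median log2 fold change over the 52 members with a count in every group was 3.18, and 50 of them were at least 4-fold higher, where 1.86% of all genes tested were. The other 2, just short of 4-fold, were Krtap3-2, with 9.30 CPM in bleomycin and 35.1 CPM in EHP-101, and Krtap4-9, with 4.30 and 17.1 CPM. The edgeR test called 0 members (0% of all genes), with 0 at an unadjusted p under 0.05 and a smallest adjusted p of 0.9998. DESeq2 also called 0 members, and of the 17377 genes tested it called 2 higher and 8 lower. It had 4 members higher at an unadjusted p under 0.05, and the share over all genes was not counted. Without ajulemic acid replicate 2 the smallest adjusted p was 0.447. EHP-101 was below control for 52 of 55 members, with a median log2 fold change of -0.81. Only Krtap16-1 and Krtap10-4 were higher in EHP-101 than in control, at 55.3 against 53.9 CPM and 7.69 against 7.16 CPM. The high glycine-tyrosine genes lay farther below control (median -1.43) than the high sulfur (-0.77) and ultrahigh sulfur genes (-0.50), and 0 members passed the edgeR test (0% of all genes), with 0 at an unadjusted p under 0.05 by edgeR or DESeq2.

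The third comparison set ajulemic acid treated bleomycin skin against bleomycin skin. The fitted log2 fold change was positive for 53 of 53 tested members, with a median of 3.82 over the 52 with a count in every group. All 52 were at least 4-fold higher in the group mean, where 1.67% of all genes tested were. The group mean hides the spread, since replicates 1 and 3 were high and replicate 2 was low. The bleomycin value lay below all 3 ajulemic acid values in 32 of the 55 members, where 22.9% of all genes tested did so, and above all 3 in 0, against 24.6%. These 32 were 14 of the 16 high glycine-tyrosine, 12 of the 16 high sulfur, 4 of the 20 ultrahigh sulfur and 2 of the 3 unassigned genes.

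With all 3 replicates, edgeR called 0 members (0% of all genes higher), with 0 at an unadjusted p under 0.05 and a smallest adjusted p of 0.998. DESeq2 also called 0 members, and of the 17377 genes tested it called 4 higher and 99 lower. Here 33 members were higher by DESeq2 at an unadjusted p under 0.05, and the share over all genes was not counted. Without replicate 2, the lowest of the 3 by sum, edgeR called 5 members higher, where 0.0404% of all genes were called higher. They were Krtap19-2, Krtap19-4, Krtap19-5, Krtap6-5 and Krtap21-1. All 5 are high glycine-tyrosine genes of chromosome 16, and their adjusted p-values without replicate 2 ran from 0.0315 for Krtap19-4 to 0.0489 for Krtap19-5. As the library left out was the low one, no conclusion is drawn from these calls.

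Against control, the ajulemic acid group had a median log2 fold change of -0.16 over the members with a count in every group, and its sign depended on which replicates were used, as replicate 3 was above control and replicate 2 below it. Replicate 3 exceeded control in 50 members, replicate 1 in 11 and replicate 2 in 0. Control lay above all 3 replicates in 5 members (Krtap6-2, Krtap6-3, Krtap6-5, Krtap20-2 and Krtap21-1), where 22.2% of all genes tested did so, and below all 3 in 0, against 26.9%. DESeq2 called 0 members, and of the 17377 genes tested it called 98 higher and 178 lower. The edgeR test called 0 members (0.0345% of all genes called lower, 0% higher), with 0 at an unadjusted p under 0.05 by edgeR or DESeq2. Without replicate 3 it called Krtap20-2 lower (adjusted p = 0.0252), where 1.33% of all genes were called lower. All 15 counts of Krtap20-2 in the ajulemic acid group were in replicate 3, so no conclusion is drawn from this call.

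EHP-101 and ajulemic acid were compared directly, although the doses are not given. The EHP-101 value lay below all 3 ajulemic acid values in 0 of the 55 members and above all 3 in 0, while 19.8% of all genes tested lay below and 18.3% above that range. The median log2 fold change of EHP-101 against ajulemic acid was -0.68, and 0 members passed the edgeR test (0% of all genes), with 0 at an unadjusted p under 0.05 by edgeR or DESeq2. For Krtap8-1 the log2 fold change was -0.88 (SE 1.61).

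The ajulemic acid replicates differed widely in these genes, and also in other genes of the shaft and sheath. The SD of log2 CPM over the 3 replicates had a median of 2.31 over the 53 tested members (range 1.36 to 2.77), against 0.23 over all genes tested. The 99th percentile of all genes tested was 1.87. Of the 100 genes with the largest SD, 29 were Krtap genes and 27 others were hair keratins, inner root sheath genes or other shaft genes. The SD was largest in Krtap3-1 and smallest in Krtap20-2, which had few counts. By subfamily its median was 2.44 in the ultrahigh sulfur, 2.37 in the high sulfur and 2.07 in the high glycine-tyrosine genes.

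**Figure D2:**
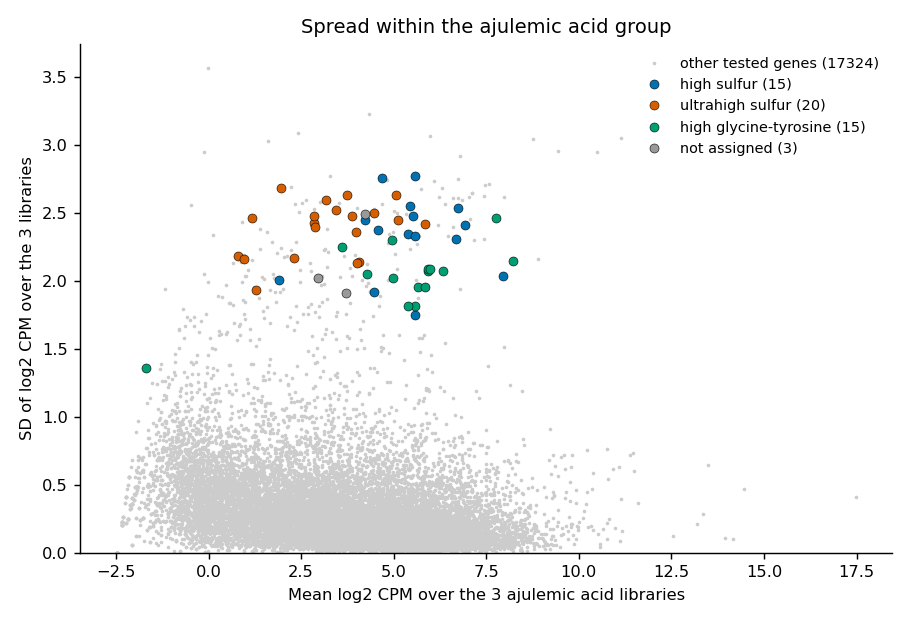
SD of log2 CPM over the 3 ajulemic acid libraries against their mean log2 CPM, 1 point per tested gene, with the 53 tested keratin-associated protein genes in colour by subfamily. The coloured points lie at an SD between 1.36 and 2.77, while the median of all genes is 0.23.

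The subfamilies did not move in equal proportion. The share of the Krtap counts that fell to ultrahigh sulfur genes was 12% in control (95% Wilson interval 11.7 to 12.2%), 19.8% in bleomycin (18.5 to 21.1%), 15% in EHP-101 (14.6 to 15.3%) and 13.2, 9.57 and 12.8% across the ajulemic acid replicates. The share of the high glycine-tyrosine genes was 49.4% in control (49.0 to 49.7%), 36.0% in bleomycin (34.5 to 37.6%), 40.9% in EHP-101 (40.4 to 41.4%) and 45.2, 49.4 and 43.0% across the ajulemic acid replicates. The high sulfur share stayed between 37.1 and 42.4%. Bleomycin and ajulemic acid replicate 2, alike in their low sums, therefore stood at opposite ends: the bleomycin library had the highest share of ultrahigh sulfur counts and replicate 2 the lowest (8.90 to 10.3%). The intervals cover counting error only, and with 1 library a group no test of the shares was made between conditions. The order of the ultrahigh sulfur shares was the same over the members with at most 20% of their 50-base stretches shared, at 11.1, 19.4, 13.5, 12.5, 9.19 and 11.8%.

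**Figure D3:**
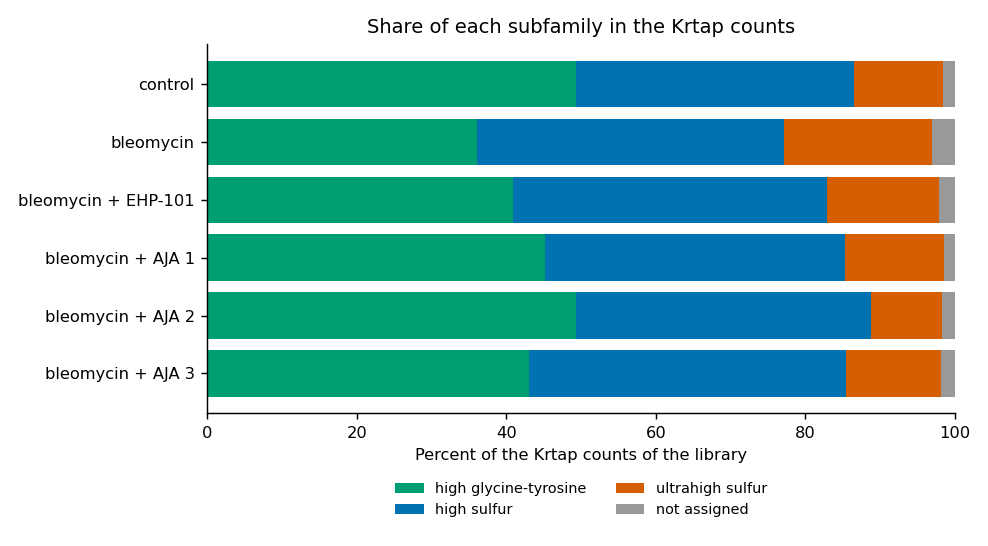
Percent of the Krtap counts of each library that fell to each subfamily (stacked bars, 1 per library, adding to 100). Ultrahigh sulfur genes take 19.8% in the bleomycin library and 9.57% in ajulemic acid replicate 2, the highest and the lowest of the 6.

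The same counts were also read member by member. From bleomycin to replicate 2, 14 of the 16 high glycine-tyrosine genes were higher and the other 2 were at 0 in both. Of the 20 ultrahigh sulfur genes 16 were lower and 4 higher, and of the 16 high sulfur genes 12 were higher, 3 lower and 1 at 0 in both. These directions take no account of counting error, and no share over all genes was counted. Some differences were small in either direction. Krtap4-8, lower after scaling, had 14 counts in bleomycin and 15 in replicate 2, and Krtap26-1, counted as higher, had 40 and 46. Subfamily and chromosome overlap, so both were set side by side. High sulfur genes of chromosome 16 had a median ratio of replicate 2 to bleomycin of 1.92 (7 genes), those of chromosome 11 of 1.29 (8 genes), and ultrahigh sulfur genes of chromosome 11 of 0.825 (12 genes), while the high glycine-tyrosine genes of chromosome 16 stood at 3.09 (14 genes). Within chromosome 16 the high sulfur median was below the high glycine-tyrosine median. Within chromosome 11 it was above the ultrahigh sulfur median, with overlapping ranges (0.706 to 1.52 against 0.279 to 1.41). No high glycine-tyrosine gene lies outside chromosome 16 and no ultrahigh sulfur gene lies on it, so for these subfamilies position and composition cannot be told apart.

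**Figure D4:**
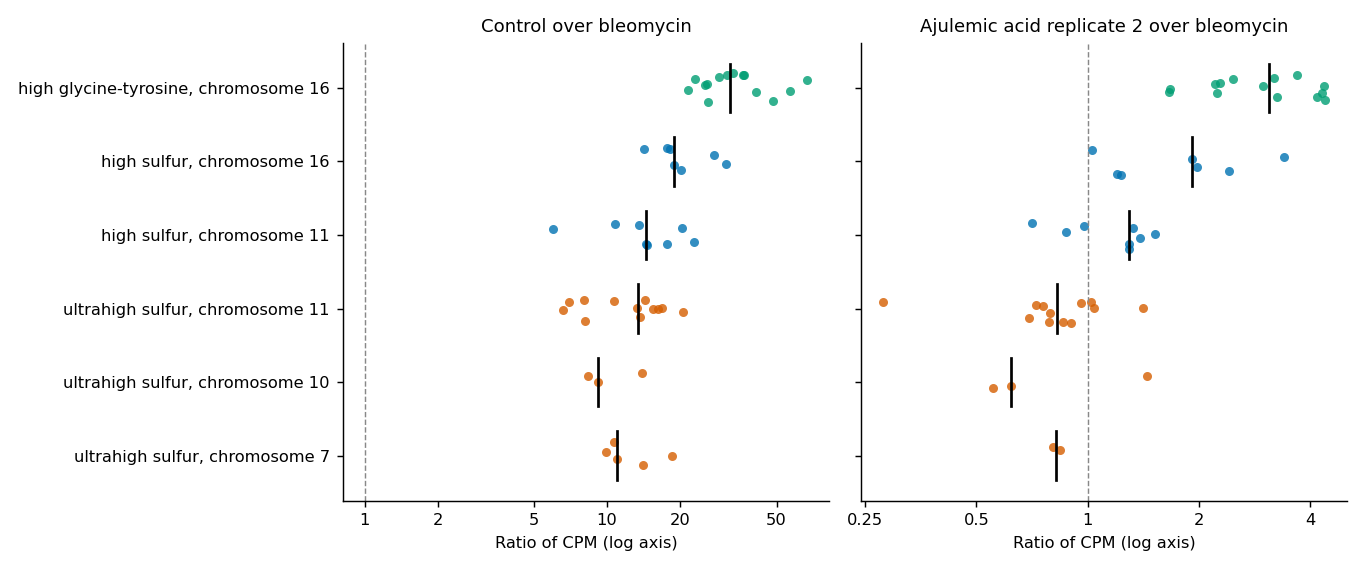
Ratio of CPM for each member (points, log axes) between control and bleomycin (left) and between ajulemic acid replicate 2 and bleomycin (right), by subfamily and chromosome; the black bar is the median and the dashed line marks a ratio of 1. High glycine-tyrosine genes have the highest medians on both sides, and most ultrahigh sulfur genes lie under 1 on the right.

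Families within the chromosome 16 cluster differed as well. The 6 Krtap19 genes, which lie side by side, summed to 422 CPM in control, 12.2 in bleomycin, 168 with EHP-101 and 396, 44.5 and 706 across the ajulemic acid replicates. Replicate 2 was 3.65-fold above bleomycin for this family. The 4 Krtap6 genes summed to 377, 13.2, 125, 219, 28.3 and 356 CPM, with replicate 2 2.14-fold above bleomycin. Replicate 3 was 1.67-fold above control for Krtap19 but 0.943 times control for Krtap6 and 0.907 times control for Krtap21-1. For Krtap7-1, toward the far end of the cluster, replicate 2 was 1.67-fold above bleomycin.

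Other genes of the hair follicle were read for comparison. Hair keratins, the filament proteins of the shaft, summed over 15 genes to 3425 CPM in control, 155 in bleomycin, 1920 with EHP-101 and 2514, 178 and 5536 across the ajulemic acid replicates. Genes of the inner root sheath, the layer that moulds the growing shaft, summed over 10 genes to 12261, 1060, 10503, 11229, 520 and 26390 CPM, with Tchh (trichohyalin) the most abundant. The leading hair keratins Krt33a (type I) and Krt83 (type II) had 614 and 476 CPM in control and 25.6 and 19.1 CPM in bleomycin, and Krt71, a keratin of the inner root sheath, had 3163 and 286 CPM. Of 7 further shaft genes all 7 were lower in bleomycin than in control (median log2 fold change -3.97), led by Prr9, at 1001 and 80.5 CPM, and S100a3, a calcium-binding protein of the shaft cuticle, at 363 and 17.9 CPM. The keratin and sheath lists were high and low in the same libraries as the Krtap genes, except that replicate 2 was below bleomycin for the inner root sheath. All 15 hair keratins and all 10 sheath genes were lower in bleomycin than in control, with median log2 fold changes of -4.45 and -3.62, and 0 of either passed the edgeR test in any of the 6 comparisons, with 0 at an unadjusted p under 0.05.

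The level of the Krtap genes relative to these lists differed between the low libraries. Krtap genes summed to 0.403 times the inner root sheath list in control, 0.214 in bleomycin, 0.219 with EHP-101 and 0.353, 0.780 and 0.304 across the ajulemic acid replicates. Relative to the hair keratins the ratios were 1.44, 1.47, 1.2, 1.58, 2.28 and 1.45. Replicate 2 had the highest ratio to both lists. Bleomycin had the lowest ratio to the sheath list, with EHP-101 next to it, while its ratio to the hair keratins lay among those of the other libraries.

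**Figure D5:**
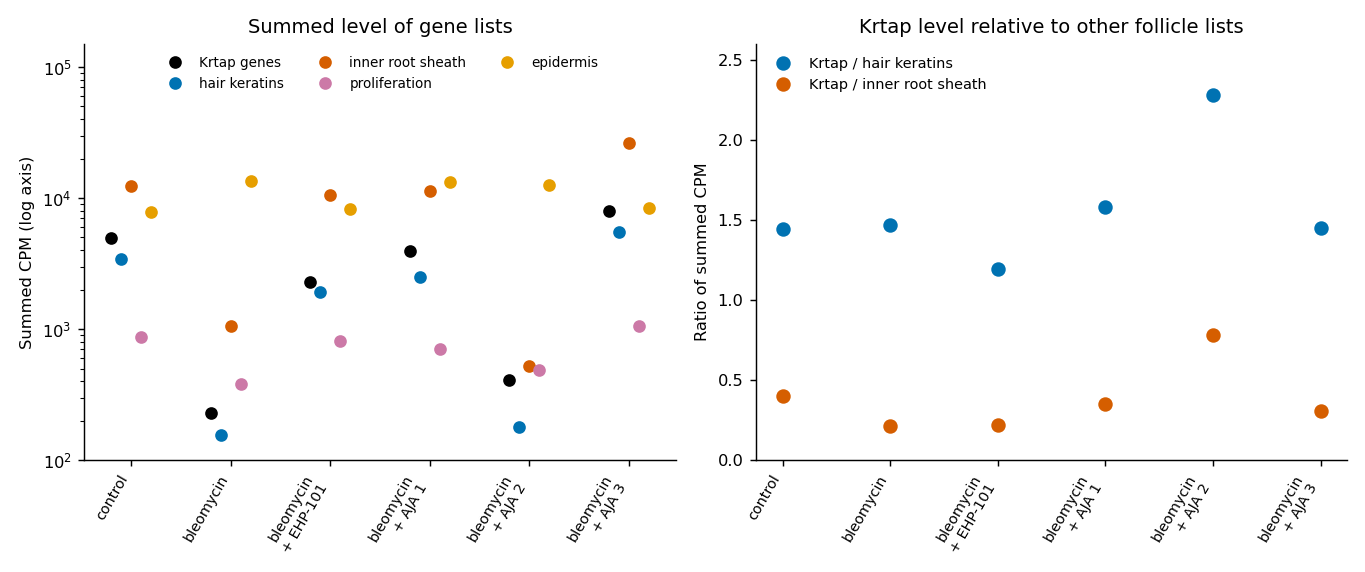
Left, summed CPM of the Krtap genes and of 4 other gene lists in each library (log axis); right, the Krtap sum divided by the hair keratin sum and by the inner root sheath sum. The ratio to the sheath list is 0.780 in ajulemic acid replicate 2 and between 0.214 and 0.403 in the other 5 libraries.

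Regulators of the follicle, transcription factors and signals that act in the bulb and shaft, were read as a list of 14 genes. Of these, 12 were lower and 2 higher in bleomycin than in control, with a median log2 fold change of -1.91, and 12 were higher in EHP-101 than in bleomycin (median 1.86). The most abundant were Vdr, the vitamin D receptor, and Gata3, a factor of the inner root sheath. Vdr had 191, 128, 199, 202, 104 and 283 CPM in the order control, bleomycin, EHP-101 and ajulemic acid replicates 1 to 3, with bleomycin and replicate 2 the lowest. Gata3 had 135, 161, 162, 179, 153 and 142 CPM and did not separate these libraries. Hoxc13, a factor that activates hair keratin genes, had 40, 8.34, 41.6, 32.9, 8.14 and 64.3 CPM, again lowest in bleomycin and replicate 2.

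Proliferation genes summed to 876 CPM in control, 379 in bleomycin, 808 with EHP-101 and 706, 483 and 1048 across the ajulemic acid replicates, and 16 of 16 were lower in bleomycin than in control. Melanocyte genes, active in growing follicles, summed to 404, 163, 386, 410, 133 and 693 CPM. In both lists bleomycin and replicate 2 were the lowest libraries, as they were for the melanocyte genes Dct (40.2 and 25.7 CPM, against 97.8 CPM in control) and Mitf (45.2 and 49.5 CPM, against 79.4 CPM). Dermal papilla genes summed to between 202 and 305 CPM, mostly Vcan (versican, 139 to 192 CPM), but 7 of the 8 were lower in bleomycin than in control (median -0.85). Sostdc1, a secreted inhibitor of BMP and Wnt signals, had 22 CPM in bleomycin and 23.7 CPM in control, and Corin, a papilla protease, had 1.80 and 14.9 CPM.

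Genes of the resting follicle and bulge did not move as 1 group. Krt15, a keratin of bulge cells that made up most of the list's sum, had 1460 CPM in bleomycin and 1340.5 CPM in replicate 2, above the 939 to 1185 CPM of the other 4 libraries. Of the 11 genes, however, 8 were lower and 3 higher in bleomycin than in control (median -0.69), and Cd34, a surface marker of bulge cells, had 101 CPM in bleomycin and 189 CPM in control. By edgeR, 0 genes of these 5 lists (regulators, proliferation, melanocyte, papilla and bulge) passed in any of the 6 comparisons, with 0 or 1 gene of each list at an unadjusted p under 0.05 in each comparison.

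The skin markers Krt5, Krt14 and Col1a1 were present in every library, at 704 CPM or more. Skeletal muscle genes summed to 2520 CPM in control, 6890 in bleomycin, 6174 with EHP-101 and 4228, 6168 and 3068 across the ajulemic acid replicates (Acta1, skeletal muscle actin, had 425 CPM in control and 1128 in bleomycin), and epidermal genes to 7868, 13480.4, 8213, 13195, 12632 and 8328 CPM. Both lists were high in bleomycin and in replicate 2, the libraries where Krtap RNA was low, but each was also high in 1 library where it was not. Alb, an albumin gene of the liver, had 678, 477 and 455 CPM in control, bleomycin and EHP-101 and 5.59, 12.6 and 1.75 CPM across the ajulemic acid replicates, and did not follow the Krtap genes. The part of any of these lists in the Krtap differences was not tested.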

How the data were processed

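Per the labels' protocols, 300 ng of total RNA from frozen skin went into stranded libraries depleted of ribosomal RNA, read as single ends of 50 bp. The submitters' processing notes name Trimmomatic 0.36, HISAT2 2.1.0, featureCounts 1.6.1, DESeq2 1.20.0 and mm10 as the build. Raw counts, listed by NCBI gene number, are what the authors deposited. The 6 libraries had the same counts in both deposited tables (0 differing values). The merged table holds 6 further columns, other replicates of control, bleomycin and EHP-101 that belong to another series. They were not used.

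Symbols were found for 25293 of 27179 gene numbers in RefSeq and GENCODE tables, and 1886 had none. edgeR 4.0.16 (R 4.3.3) was run on the counts as deposited: filterByExpr (minimum count 10, 17377 genes tested), TMM, robust two-sided quasi-likelihood F-tests in 1 fit of all 6 libraries, Benjamini-Hochberg adjustment over all genes tested with 0.05 as the threshold. All 2 residual degrees of freedom came from the ajulemic acid group, whose spread was assumed for the single libraries. SDs are of log2 CPM (prior count 3). Standard errors (SE) of log2 fold changes were derived as the absolute log2 fold change divided by the square root of the F statistic. Codon shares and shared 50-base stretches were computed from GENCODE vM21 (GRCm38), since no protein table was used here, and promoters came from RefSeq. The fit was tested on simulated counts.

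The members, the 14 gene lists and the tests were chosen with earlier results of these data known. Krtap16-3 was moved between subfamilies after its codons were seen. Named were the 4 members with the highest mean CPM per kb in each subfamily, members past the threshold, and those of largest and smallest SD in the ajulemic acid group; of the other lists, the 2 genes of highest mean CPM in each hair list and Krt5, Krt14, Col1a1, Alb and Acta1. Other genes named in the text were chosen after their values were seen. Alternatives were DESeq2 1.42.0, limma-trend (limma 3.58.1), RLE, total library size, TMM without Krtap and hair keratin genes, no filter, and leaving out each ajulemic acid replicate.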

Additional observations from a re-analysis of the deposited data

How the results depend on the processing

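The number of Krtap genes called was 0 in all 6 comparisons with all libraries, by edgeR, DESeq2 and limma-trend and under each scaling and filter tried. Leaving out each ajulemic acid replicate in turn, the number called higher against bleomycin ranged from 0 to 5, and the number called lower against control from 0 to 1. The 5 came only without replicate 2 and the 1 only without replicate 3. Without replicate 1, with as few libraries, 0 members were called in these 2 comparisons. The cause was not tested. The median log2 fold change of ajulemic acid against control turned from -0.16 to 0.31 without replicate 2, and that of EHP-101 against ajulemic acid from -0.68 to 0.26 without replicate 3 and to 0.14 with limma-trend; medians of the comparisons with bleomycin kept their sign. Other scalings moved summed levels by factors of 0.936 to 1.06. The alternatives chosen after seeing the data (Krtap16-3 placed by its number, and only members with at most 20% of 50-base stretches shared) moved 27 subfamily shares beyond counting error. No paired analysis was possible because the libraries used share only replicate number 3 across groups. With 1 library used in 3 of the 4 groups, differences between conditions have no replicate check here.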
